A study of Mus musculus with 7 samples.

Results

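The mitochondrial chaperones and proteases described here are 10 genes, Hspd1, Hspe1, Hspa9, Trap1, Lonp1, Clpp, Clpx, Afg3l2, Spg7 and Yme1l1, taken by symbol from a table of 21487 genes, and all 10 had enough counts to be tested. RNA was sequenced from the gastrocnemius, a mostly fast calf muscle, after the limb had been immobilized to cause atrophy. Knockout muscle came from mice with a skeletal muscle-specific deletion of DJ-1 (gene Park7; 4 libraries), and control muscle came from flox mice, labelled WT (3 libraries). Both groups were immobilized, so the comparison was knockout against control within disused muscle. The sources used here do not give the promoter that drives the deletion, the age of the mice, the length of immobilization or whether each library is a separate animal, and p-values therefore measure the spread between libraries only.

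Most mitochondrial proteins are made in the cytosol and enter the organelle unfolded. Inside the matrix they are pulled in and folded by chaperones: mortalin (Hspa9, the mitochondrial HSP70), the HSP60 chaperonin (Hspd1) with its HSP10 lid (Hspe1), and TRAP1, a mitochondrial HSP90. Damaged or surplus proteins are degraded by ATP-driven proteases, of which LONP1 and CLPXP (the peptidase Clpp with the unfoldase Clpx) work in the matrix, the m-AAA protease (Afg3l2 and Spg7) faces the matrix from the inner membrane, and the i-AAA protease (Yme1l1) faces the intermembrane space. Several of these genes are classic targets of the mitochondrial unfolded protein response, a stress programme in which misfolded protein in the organelle raises their transcription. In human patients, mutations of SPG7 cause a hereditary spastic paraplegia.

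The promoters of 3 members discussed below are shown. Hspd1 and Hspe1 lie head to head and start from the same stretch of DNA, Spg7 is 1 of the 2 members that fell, and Trap1 had the highest fold change of the members. Each window runs from 250 bases before to 50 bases after a RefSeq start site on GRCm38.p6, read 5′ to 3′ on the strand of the gene. Capitals mark motif matches on either strand.
Hspe1, chr1:55087898-55088197, plus strand: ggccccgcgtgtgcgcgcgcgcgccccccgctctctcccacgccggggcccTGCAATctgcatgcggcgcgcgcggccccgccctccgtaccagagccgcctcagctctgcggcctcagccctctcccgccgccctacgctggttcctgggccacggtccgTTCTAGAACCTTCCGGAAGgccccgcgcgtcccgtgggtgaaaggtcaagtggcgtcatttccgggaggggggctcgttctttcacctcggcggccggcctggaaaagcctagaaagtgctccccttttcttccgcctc
Spg7, chr8:123065258-123065557, plus strand: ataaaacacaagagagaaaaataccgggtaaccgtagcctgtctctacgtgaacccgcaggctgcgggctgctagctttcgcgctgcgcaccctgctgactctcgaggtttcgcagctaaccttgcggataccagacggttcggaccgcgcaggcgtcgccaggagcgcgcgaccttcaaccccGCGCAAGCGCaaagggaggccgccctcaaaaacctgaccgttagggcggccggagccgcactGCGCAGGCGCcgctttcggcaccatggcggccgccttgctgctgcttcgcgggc
Trap1, chr16:4077761-4078060, minus strand: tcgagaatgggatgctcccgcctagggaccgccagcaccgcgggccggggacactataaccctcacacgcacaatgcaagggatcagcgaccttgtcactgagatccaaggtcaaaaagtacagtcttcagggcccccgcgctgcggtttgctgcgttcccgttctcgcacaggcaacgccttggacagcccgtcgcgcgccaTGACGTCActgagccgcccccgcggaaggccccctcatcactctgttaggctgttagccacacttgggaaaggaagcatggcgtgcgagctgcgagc
The Hspe1 window shares 285 bases with a window of Hspd1 read on the other strand. Its long capital run holds 2 overlapping matches, 1 on each strand, to the heat shock element, the site of heat shock factors, searched as GAA, TTC and GAA with any 2 bases between each, and both overlap 2 matches to the ETS motif CCGGAAG. The heat shock element occurred in 0.603% of 32851 promoter windows and the ETS motif in 8.86%. A further match near the 5′ end is the C/EBP-ATF core TGCAAT, found in 8.4% of windows. The Spg7 window holds 2 matches to the NRF-1 motif, GCGCA and GCGC with any 1 base between, which 4.6% of windows hold and which a second window of Hspd1 also holds. The Trap1 window holds the cyclic AMP response element TGACGTCA, which 1.79% of windows hold. Of the 8 members whose promoters were searched, the heat shock element was found for Hspd1 and Hspe1 only. The promoters of Hspa9, the other member that fell, and Afg3l2 were not searched. The sixth motif searched was the GC box GGGGCGGGG, present in 11.4% of windows and, among members, in those of Hspd1 and Yme1l1. These matches describe the letters and do not show binding.

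Library totals ran from 24458343 to 26389010 counts. Park7 was at 229 to 266 CPM (counts scaled to a common library total) in the controls and at 34.7 to 41.5 CPM in the knockouts, low in every library labelled knockout. The 8 muscle fibre markers summed to between 107721 and 203736 CPM in every library, and they shifted among themselves. Myh4, the myosin of the fastest fibres, and Actn3, a fast fibre actinin, rose by 1.11 and 0.74 in log2 units (adjusted p = 0.038 and 0.0214). Myh1, the myosin of intermediate fast fibres, and Mb, myoglobin, fell, with log2 fold changes of -1.45 and -2.17 (adjusted p = 0.0292 and 0.0101). Slow fibre markers set the groups and the knockouts apart: their 8 genes summed to 1814, 2120 and 2062 CPM in controls 1 to 3 and to 713, 127, 76.3 and 722 CPM in knockouts 1 to 4, and 3 of the 8 were called lower. Among the cell types other than fibres, 3 of 5 fibroblast, 3 of 5 erythroid, 2 of 6 macrophage, 2 of 4 smooth muscle, 1 of 3 tested adipocyte and 1 of 3 Schwann cell markers were called lower and none higher. The summed fibroblast markers ran from 260 to 540 CPM in controls and from 186 to 282 in knockouts, erythroid from 223 to 808 and from 101 to 235, macrophage from 28.6 to 34.5 and from 17.1 to 28.3, smooth muscle from 320 to 454 and from 302 to 362, adipocyte from 125 to 144 and from 80.5 to 121, and Schwann cell from 27.2 to 118 and from 16.6 to 25.1. No endothelial, satellite cell or tenocyte marker was called. Neutrophil and lymphocyte markers were too low to be tested, summing to at most 1.03 CPM, and each of the 5 lymphocyte markers was at 0 in at least 1 library. The part of these markers in the results on the members was not tested. In whole muscle, fewer cells of a type and less RNA per cell cannot be told apart.

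Of the 10 members, 2 fell in the knockout, Hspa9 and Spg7, and none rose. Both changes were below 1.5-fold. The count of 2 became 0 with the replicate number as a block, with no filter on low counts, without knockouts 2 and 3, and without any library but knockout 1, where it was 1. Knockout 4 shares its number with no control, so in the block fit it adds nothing to the difference between the groups. That fit in effect compares 3 knockouts with 3 controls, and calls can be lost to its lower power alone. Among all 13409 genes tested, 14.9% were called at an adjusted p under 0.05, 6.67% higher and 8.23% lower, so a count of 2 among 10 members stands beside a background of similar order. The share of all genes called lower also shrank, to 5.19% with the block and 3.4% without knockouts 2 and 3. With no filter it was 4.43% of 21455 genes in place of 13409, or 951 genes called lower against 1103. With 1 library left out the share ran from 3.89% without control 1 to 8.21% without knockout 2. The members with an unadjusted p under 0.05 numbered 4, against 31.8% of all genes. The median log2 fold change of the members was -0.08, against 0.0058 over all genes tested. Every member had a 95% interval that lay between 0.633 and 1.30 times the control level, which bounds how far any of them moved by this model. By upper quartile scaling 33.2% of all calls were higher in place of 44.8%, and the same 2 members were called.

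By the GRCm38 annotation, Hspd1 lies at chr1:55077835-55088243 (minus strand) and Hspe1 at chr1:55088132-55091307 (plus), Lonp1 at chr17:56614297-56626887 (minus) and Clpp at chr17:56990305-56996188 (plus). Trap1 lies at chr16:4039971-4077827 (minus), Clpx at chr9:65294260-65330658 (plus), Yme1l1 at chr2:23156369-23199260 (plus) and Spg7 at chr8:123062942-123097760 (plus).

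**Figure D1:**
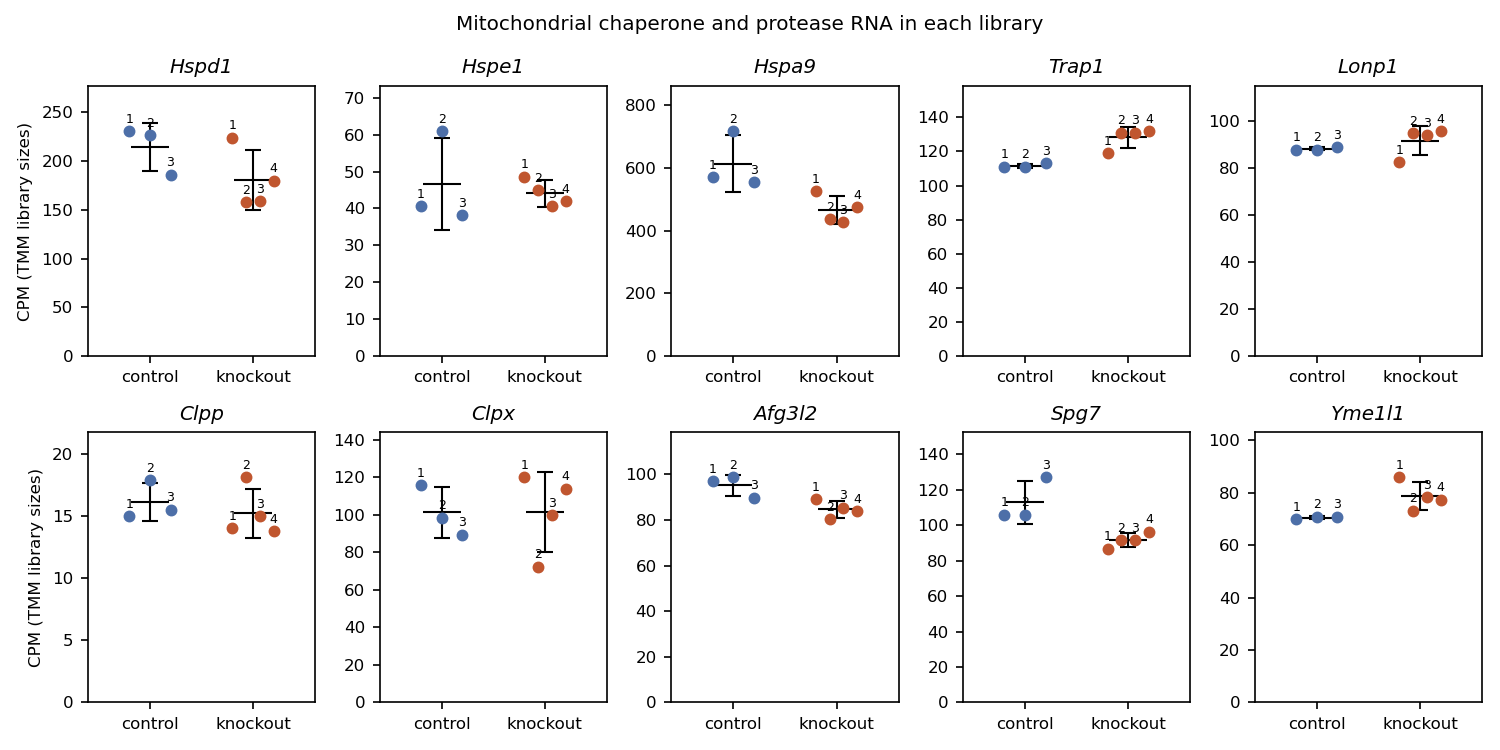
Level of each member in every library, in CPM on TMM library sizes; points are libraries numbered by replicate (blue, 3 controls; orange, 4 knockouts), and bars give the mean and SD. Hspa9, Afg3l2 and Spg7 lie lower in every knockout than in any control, and Trap1 and Yme1l1 lie higher.

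Among the chaperones, Hspa9, which pulls proteins through the import channel and helps them fold, fell. It read 570, 718 and 554 CPM in the controls and 526, 436, 428 and 475 CPM in the knockouts. Every knockout lay below every control, with control 2 far above the other two controls. The control mean was 614 ± 90.2 CPM (SD, n = 3) and the knockout mean 466 ± 44.6 CPM (SD, n = 4), so that the log2 fold change was -0.40 (SE 0.116, 95% interval -0.66 to -0.14, adjusted p = 0.0495). That p lies at the threshold, and it was 0.0528 with the older deviance method, the default of the edgeR version used, the newer method having been taken after both results were seen. With a term for the replicate number it was 0.0958, and with 1 library left out the call was kept only without knockout 1 (0.0393), the other adjusted p-values running from 0.0759 without control 3 to 0.152 without control 2. Without control 2 the log2 fold change was -0.27, and without both knockout 2 and knockout 3, the libraries with the least slow fibre RNA, it was -0.29 (adjusted p = 0.217).

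The chaperonin pair did not pass. Hspd1, the folding chamber, read 231, 227 and 186 CPM in the controls and 224, 158, 159 and 180 CPM in the knockouts. Knockout 1 lay among the controls and control 3 among the knockouts, and the log2 fold change of -0.25 had an interval of -0.56 to 0.05 (adjusted p = 0.237). Hspe1, the lid of the chamber, read 40.6, 61.0 and 38.2 CPM in the controls and 48.6, 45.0, 40.7 and 41.9 CPM in the knockouts. Control 2 alone was above all others, while the remaining 2 controls were below every knockout. The log2 fold change was -0.08 (interval -0.44 to 0.27, adjusted p = 0.754), and its direction turned without control 2, to 0.16 (adjusted p = 0.337).

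Control 2 stood apart in other stress genes as well. Hspb1, a small heat shock protein of the cytosol, read 358 CPM there against 95 and 98.8 CPM in controls 1 and 3 and 77.5 to 145 CPM in the knockouts. Atf3, a transcription factor induced by stress, read 55.8 CPM there against 7 and 6.14 CPM in the other controls and 3.22 to 9.09 CPM in the knockouts. Both genes were singled out after their values were seen, neither passed the test of the groups (adjusted p = 0.306 and 0.126), and their part in the levels of Hspa9 and Hspe1 was not tested.

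Trap1 was the member with the highest log2 fold change. TRAP1 is a chaperone of the matrix that restrains respiration through succinate dehydrogenase. Its RNA read 111, 111 and 113 CPM in the controls and 119, 131, 131 and 132 CPM in the knockouts. Every knockout lay above the controls, whose CV of 1.09% was below the 1.87% that counting error alone would give. The log2 fold change of 0.19 (SE 0.0689, interval 0.04 to 0.35) had an adjusted p of 0.0928 and did not pass, nor did it with any 1 library left out (adjusted p 0.0588 to 0.25). The Trap1 exons overlap those of Dnase1 on the other strand by 54 bases, and since the strand of the protocol is not given, reads there cannot be assigned to a strand.

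**Figure D2:**
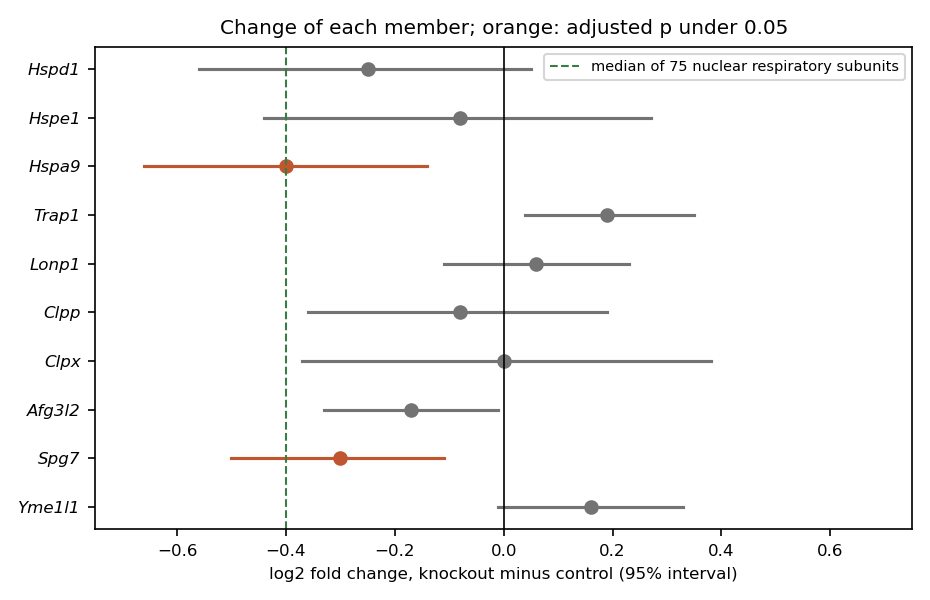
Log2 fold change of each member, knockout minus control, with its 95% interval from the edgeR fit; orange marks Hspa9 and Spg7 (adjusted p under 0.05) and grey the other members. The green dashed line is the median of 75 nuclear-encoded respiratory subunits, -0.40, which lies outside the intervals of Trap1, Lonp1, Clpp, Clpx, Afg3l2 and Yme1l1.

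The soluble proteases of the matrix did not pass in either direction. Lonp1, which degrades oxidized matrix proteins, read 87.6, 87.7 and 88.7 CPM in the controls and 82.3, 94.6, 93.7 and 95.6 CPM in the knockouts. Knockouts 2 to 4 lay above the controls and knockout 1 lay below them. The controls were closer together (CV 0.68%) than counting error alone would give (2.11%). It had a log2 fold change of 0.06 (-0.11 to 0.23, adjusted p = 0.642).

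Clpp, the peptidase chamber of CLPXP, read 15, 17.9 and 15.5 CPM in the controls and 14.0, 18.1, 15 and 13.8 CPM in the knockouts, and the groups overlapped across most of their range (log2 fold change -0.08, interval -0.36 to 0.19, adjusted p = 0.674). Clpx, the unfoldase that feeds it, read 116, 98.5 and 89.5 CPM in the controls and 120, 72.5, 99.9 and 114 CPM in the knockouts. Knockout 2 was the lowest and knockout 1 the highest of all 7 libraries. With the widest interval of the 10 members, Clpx had a log2 fold change of 0.00 (-0.37 to 0.38, adjusted p = 0.989), a sign that depends on the libraries used.

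Of the inner membrane proteases, Spg7, the paraplegin subunit of the m-AAA protease, fell. It read 106, 106 and 127 CPM in the controls and 86.9, 91.6, 91.7 and 96.4 CPM in the knockouts. The groups did not overlap, and control 3 stood above the other controls. The control mean was 113 ± 11.9 CPM (SD, n = 3) and the knockout mean 91.6 ± 3.87 CPM (SD, n = 4), so that the log2 fold change was -0.30 (SE 0.0850, interval -0.50 to -0.11, adjusted p = 0.0437). The call was lost with a term for the replicate number (adjusted p = 0.0655) and without each library in turn, from 0.0607 without knockout 2 to 0.159 without control 3, where the log2 fold change was -0.21. Knockouts 2 and 3, which hold the least slow fibre RNA, had Spg7 levels between those of knockouts 1 and 4, and without them the log2 fold change was again -0.30 (adjusted p = 0.143).

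Afg3l2, a subunit that forms the m-AAA protease with paraplegin or by itself, read 97.1, 98.6 and 89.7 CPM in the controls and 89.1, 80.2, 85.3 and 83.7 CPM in the knockouts. Knockout 1 lay just below control 3, and the groups did not overlap. Its log2 fold change of -0.17 (interval -0.33 to -0.01) had an unadjusted p of 0.0422 and did not pass over all genes (adjusted p = 0.142). Afg3l1, a further m-AAA subunit in the mouse and no member here, had a log2 fold change of 0.12 (adjusted p = 0.296).

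Yme1l1, the i-AAA protease, which processes the fusion protein OPA1, read 69.8, 70.8 and 70.8 CPM in the controls and 85.8, 73.1, 78.2 and 77.3 CPM in the knockouts. All 4 knockouts lay above the controls, whose CV of 0.767% was again below counting error (2.35%), with a log2 fold change of 0.16 (interval -0.01 to 0.33) that did not pass (adjusted p = 0.185). The groups were thus apart in 5 of 10 members, with the knockouts above in Trap1 and Yme1l1 and below in Hspa9, Afg3l2 and Spg7. Over all tested genes they were apart in 28.8%, with the knockouts above in 14% and below in 14.8%.

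Whether partners kept their proportions was asked with 3 ratios taken within each library. The Hspd1 to Hspe1 log2 ratio averaged 2.22 ± 0.304 over 3 controls and 2.01 ± 0.172 over 4 knockouts (SD), a difference of -0.21 (2-sided exact permutation p = 0.286, and 0.686 adjusted over the 3 ratios). For Clpp to Clpx it was -2.61 ± 0.260 and -2.68 ± 0.496, a difference of -0.07 (exact permutation p = 0.83, the same after adjustment). For Afg3l2 to Spg7 it was -0.24 ± 0.220 and -0.11 ± 0.110, a difference of 0.13 (exact permutation p = 0.457, and 0.686 adjusted). In each ratio the groups overlapped, and no difference was detectable with these libraries, where the smallest possible p is 0.0286. The labels do not establish same-numbered libraries as pairs. A comparison within the 3 such pairs, which leaves out knockout 4, was added after seeing the data. Within them the Hspd1 to Hspe1 ratio was lower in the knockout each time, with differences of -0.30, -0.09 and -0.32 (exact permutation within pairs, p = 0.25, the smallest that 3 pairs allow). The Clpp to Clpx ratio was lower in 2 of 3 pairs and the Afg3l2 to Spg7 ratio in 1 of 3 (exact permutation within pairs, p = 1 and 0.5). The 2 genes of the chaperonin overlap by 112 bases at their starts on opposite strands, and Hspd1 has 5 named processed pseudogenes in GENCODE M21, although its deposited counts, as those of the other 9 members, were whole numbers.

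**Figure D3:**
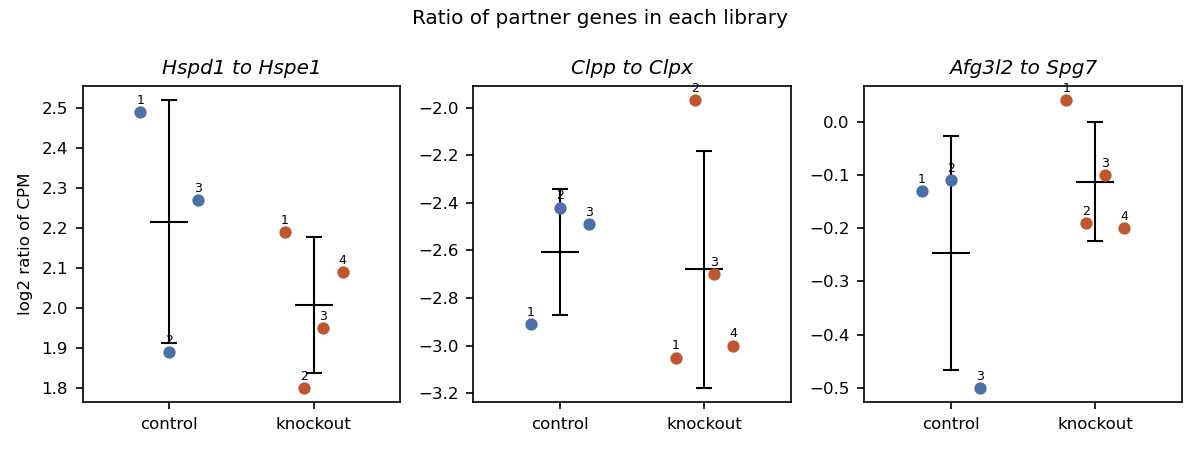
Log2 ratio of the CPM of partner genes in each library; points are libraries numbered by replicate (blue, 3 controls; orange, 4 knockouts), and bars give the mean and SD. In each panel the groups overlap, and knockout 2 has the highest Clpp to Clpx ratio, at -1.97.

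Per length of merged exons, Hspa9 was the most abundant member, at 143 ± 20.9 CPM per kilobase over 3 controls and 108 ± 10.3 over 4 knockouts (SD). Hspd1 followed at 81.2 ± 9.41 and 68.2 ± 11.7, and Trap1 at 43.5 ± 0.473 and 49.8 ± 2.43. In the controls these 3 levels did not overlap with each other or with the next. Hspe1 at 31.6 ± 8.50, Clpx at 29.0 ± 3.80 and Spg7 at 25 ± 2.64 CPM per kilobase overlapped with their neighbours in the controls, so their order is not resolved. Lonp1 at 20.1 ± 0.137, Clpp at 13.2 ± 1.29, Afg3l2 at 9.63 ± 0.484 and Yme1l1 at 8.80 ± 0.0674 made up the lower end. The order changed between the groups only where Spg7 and Lonp1, and Afg3l2 and Yme1l1, exchanged places. Taking the longest transcript as the length moved Afg3l2, whose merged exons span 9.874 kilobases against 4.664 for that transcript, from the ninth place to the seventh. It also put Hspe1 level with Trap1, at 48.4 and 48.3 CPM per kilobase in the controls, so the third place of Trap1 depends on the length used.

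The respiratory chain gives the members a reference in the same libraries. Of 75 nuclear-encoded respiratory subunits 61 fell and none rose, with a median log2 fold change of -0.40, against the 2 of 10 and -0.08 of the members. Without knockouts 2 and 3, 29 of the subunits fell, while the number of all tested genes called lower went from 1103 to 460. Their most strongly supported gene, Cox7a1, a muscle isoform of a cytochrome c oxidase subunit, had a log2 fold change of -0.80 (adjusted p = 0.00207). Cs, citrate synthase, often used as a measure of mitochondrial content, fell by 0.45 (adjusted p = 0.0118). It was not called without control 3 (adjusted p = 0.0505) or without knockouts 2 and 3 (log2 fold change -0.43, adjusted p = 0.0587). Tfam, Polg and Opa1, which maintain mitochondrial DNA and the inner membrane, did not pass (adjusted p = 0.246, 0.715 and 0.507), nor did the outer membrane channel Vdac1 (log2 fold change -0.33, adjusted p = 0.0596). The difference between the members and the respiratory subunits as groups was not tested.

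Set against the mean log2 CPM of the respiratory subunits in the same library, Hspa9 stood at 1.71 ± 0.166 over 3 controls and 1.72 ± 0.144 over 4 knockouts (SD), and Spg7 at -0.72 ± 0.187 and -0.62 ± 0.0458, both with overlapping groups. On this scale every knockout was above every control for Trap1, Yme1l1, Lonp1 and Afg3l2, by 0.59, 0.55, 0.45 and 0.23 in the mean. That is 4 of 10 members, and since the reference itself was lower in the knockouts, 53.9% of all tested genes did the same. No member was below in this way, as 2.45% of all genes were.

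**Figure D4:**
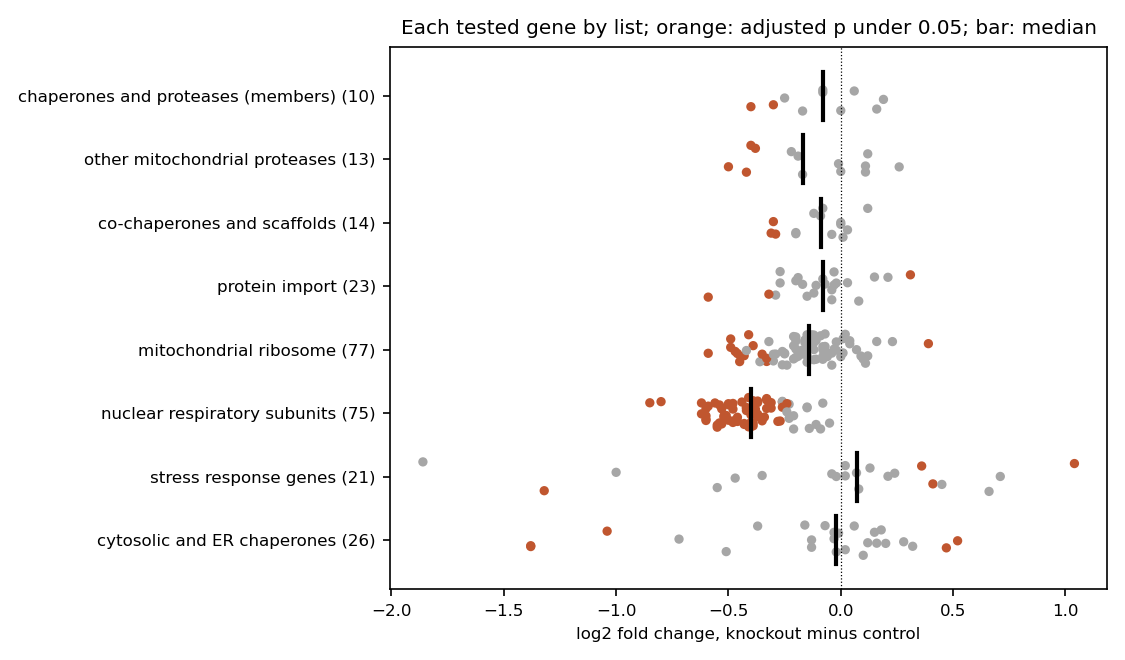
Log2 fold change, knockout minus control, of every tested gene in 8 lists, with the number of genes in brackets; orange points have an adjusted p under 0.05 and the black bar is the median. The median lies at -0.40 for the respiratory subunits and at -0.08 for the chaperones and proteases.

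Other mitochondrial proteases included 4 that fell, among 13 tested, and none that rose (median log2 fold change -0.17). For this list and those below, the shares over all tested genes were 8.23% lower and 6.67% higher. Only 1 was called with the replicate block, Pmpcb, and 1 without knockouts 2 and 3. Pmpcb, a subunit of the peptidase that removes import signals, averaged 61.9 ± 3.11 CPM over 3 controls and 46.1 ± 1.92 CPM over 4 knockouts (SD), with a log2 fold change of -0.42 (adjusted p = 0.00894), and leaving out any single library kept the call. Oma1, the stress-activated protease that cleaves OPA1 beside YME1L1, fell by 0.38 (adjusted p = 0.0216). Immp2l, of the inner membrane peptidase, and Htra2, a protease of the intermembrane space, fell by 0.50 and 0.40 (adjusted p = 0.0411 and 0.0433). With the block the adjusted p was 0.0775 for Oma1, 0.111 for Immp2l and 0.106 for Htra2. The call of Oma1 was lost without any control or knockout 4 (up to 0.0762), that of Immp2l without any library but knockout 2 (up to 0.113) and that of Htra2 without any library (up to 0.132).

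Of the 14 co-chaperones and scaffolds tested, 3 fell and none rose (median -0.09), against 1 with the replicate block and 0 without knockouts 2 and 3. They were Phb, a prohibitin that forms a scaffold around the m-AAA protease, by 0.30 in log2 units (adjusted p = 0.0187), Clpb, a disaggregase of the intermembrane space, by 0.31 (adjusted p = 0.0283), and Dnaja3, a J-protein partner of mortalin, by 0.29 (adjusted p = 0.0325). Phb lost its call without any control or knockout 3, Clpb also without knockout 4, and Dnaja3 without any library but knockout 1, at adjusted p-values of up to 0.0636, 0.1 and 0.106. With the block Clpb had an adjusted p of 0.0746 and Dnaja3 of 0.0949. Grpel1, the nucleotide exchange factor of mortalin, and Phb2, the partner of Phb in the scaffold, were singled out after their values were seen. Neither passed, at log2 fold changes of -0.20 (adjusted p = 0.152) and 0.00 (adjusted p = 0.988).

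Of 23 genes of the import machinery, 2 fell and 1 rose (median -0.08), and with the replicate block, or without knockouts 2 and 3, 0 were called in either direction. The counts with all libraries are near the shares over all tested genes, 8.23% lower and 6.67% higher. Timm44, which tethers mortalin to the import channel, averaged 56.7 ± 3.78 CPM over 3 controls and 45.4 ± 1.2 CPM over 4 knockouts (SD) and fell by 0.32 in log2 units (adjusted p = 0.0237), as did Mtx2, of the outer membrane, by 0.59 (adjusted p = 0.0375). Tomm6, a small subunit of the outer membrane pore, rose by 0.31 (adjusted p = 0.0473). Timm44 lost its call without control 1, control 2, knockout 3 or knockout 4 (up to 0.0786), and Mtx2 and Tomm6 kept theirs in 1 of the 7 fits with a library left out (up to 0.12 and 0.159). Tomm6 was also not called with RLE factors (0.0516) or upper quartile factors (0.0823), and 4 import genes were called lower with the latter. With the block the adjusted p was 0.0564 for Timm44, 0.0993 for Mtx2 and 0.135 for Tomm6. Of 77 mitochondrial ribosomal proteins, 12 fell and 1 rose (median -0.14), against 3 that fell with the block and 2 without knockouts 2 and 3. The gene with the lowest p among them, Mrpl14, fell by 0.49 (adjusted p = 0.0104).

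Genes that govern or mark the mitochondrial and integrated stress responses moved in both directions, 3 of 21 tested genes rising and 1 falling (median 0.07), against 1 and 0 with the replicate block and 0 and 0 without knockouts 2 and 3. Beside these counts, 14.9% of all tested genes were called in either direction. The rising calls also depended on the scaling: with RLE factors only Hsf1 kept its call (0.0381), and with upper quartile factors Hsf1, Atf4 and Ppp1r15a had adjusted p-values of 0.0525, 0.0681 and 0.0579. Hsf1, the main heat shock factor, rose by 0.36 in log2 units (adjusted p = 0.0367), Atf4, the central factor of the integrated stress response, by 0.41 (0.0483), and Ppp1r15a, a target that ends that response, by 1.04 (0.0493). Psat1, an enzyme of serine synthesis that ATF4 can induce, fell by 1.32 (0.0150). Its level was low, at 62 to 90 counts in the controls and 20 to 49 counts in the knockouts. With a library left out these 4 genes kept their calls in 2, 1, 2 and 5 of 7 fits, and Psat1 lost its call without control 2 or control 3. With the block the adjusted p was 0.0532 for Hsf1, 0.0816 for Ppp1r15a and 0.0552 for Psat1. Atf5 and Ddit3, transcription factors tied to the mitochondrial unfolded protein response and singled out after their values were seen, did not pass either, at -0.35 (adjusted p = 0.483) and -0.55 (adjusted p = 0.131) in log2 units. Atf5 read 26, 48.2 and 27.7 CPM in the controls and 18.4, 43.1, 19.6 and 25.5 CPM in the knockouts, so control 2 and knockout 2 were the high libraries.

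Of 26 chaperones of the cytosol and endoplasmic reticulum, 2 rose and 3 fell (median -0.02), against 3 and 1 with the replicate block and 1 and 1 without knockouts 2 and 3. The shares over all tested genes were 6.67% higher and 8.23% lower. Cct7 and Cct4, subunits of the cytosolic counterpart of the HSP60 chaperonin, rose by 0.52 (adjusted p = 0.00693) and 0.47 (adjusted p = 0.0166) in log2 units. The small heat shock genes Cryab, Hspb7 and Hspb6, abundant in slow and cardiac muscle, fell by 1.38, 1.38 and 1.04 (adjusted p = 0.0163, 0.0325 and 0.0162). The other 6 subunits listed for the cytosolic chaperonin did not pass, at log2 fold changes from -0.16 for Cct8 to 0.20 for Cct2. Control 2 was the highest library for each small heat shock gene, with 2129 CPM of Cryab against 939 and 1340 in controls 1 and 3, 1802 of Hspb7 against 724 and 1010, and 1352 of Hspb6 against 801 and 987. Knockout 1, at 730 CPM of Hspb7, lay above control 1, so that gene overlapped between the groups. Without control 2 the log2 fold changes were -1.01 for Cryab (adjusted p = 0.0473), -0.93 for Hspb7 (0.105) and -0.81 for Hspb6 (0.0518). Cct7 and Cryab kept their calls whichever library was left out, Hspb6 lost its call without control 2 (0.0518) and Cct4 without control 1 or control 3 (up to 0.0696), and Hspb7 kept its call without control 1 or knockout 1 only (up to 0.105). With the block the adjusted p was 0.0687 for Cryab and 0.1 for Hspb7.

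**Figure D5:**
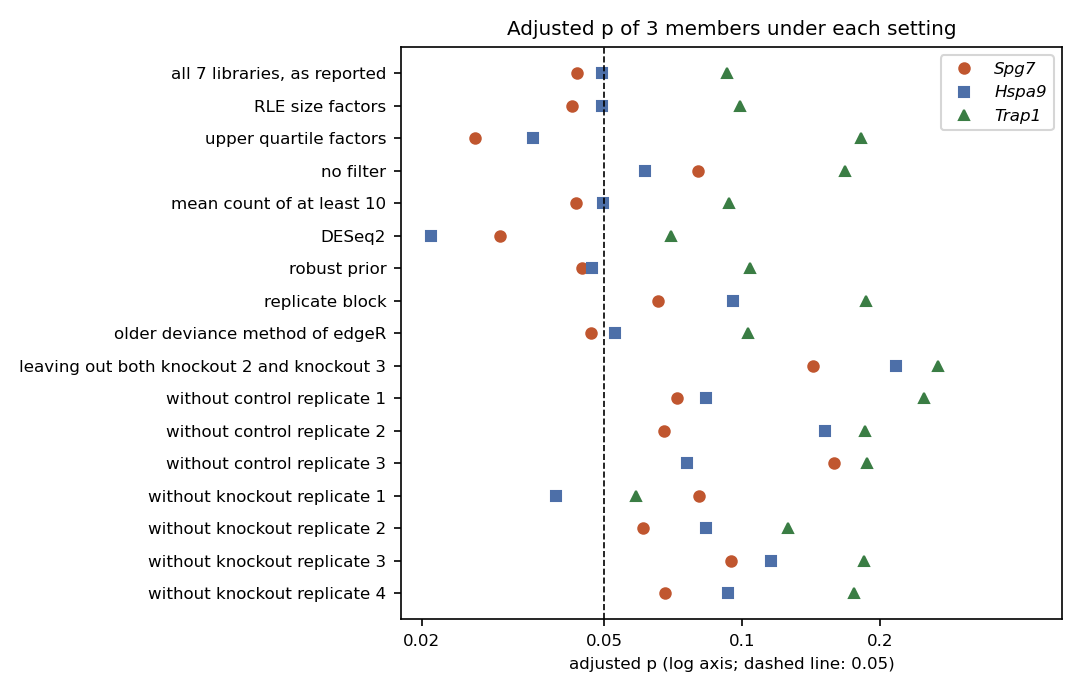
Adjusted p (log axis, dashed line at 0.05) of Spg7, Hspa9 and Trap1 under each setting, including every fit with 1 library left out. Trap1 lies above 0.05 under every setting shown, and with a library left out Hspa9 lies below it only without knockout 1 (0.0393) and Spg7 in none.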

How the data were processed

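RNA was sequenced from 7 gastrocnemius libraries (3 control, 4 knockout). The authors deposited RSEM expected counts per gene, made, per the submitters' processing notes, with STAR 2.7.10a on mm10 and RSEM 1.2.28. The study's own tests used DESeq2, with its version given as 1.3.40. The sources used here do not give the annotation or the strand. Of the symbols, 24 look like dates and were not named.

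Expected counts were rounded to whole numbers and tested in R 4.3.3 with edgeR 4.0.16 (filterByExpr, TMM, quasi-likelihood F test with bias-adjusted deviances, taken in place of this version's default after the calls of both had been seen), adjusted by the Benjamini-Hochberg method over all 13409 tested genes and called at an adjusted p under 0.05. Alternatives included DESeq2 1.42.0. Ratios used log2(CPM + 0.5) and an exact permutation test, over all libraries and, added after seeing the data, within pairs. Lengths and positions came from GENCODE M21 (GRCm38, the build of mm10), promoters from RefSeq. The deviations of same-numbered control and knockout libraries from their group means correlated at 0.104, 0.139 and 0.105 across genes. Those of unlike-numbered libraries correlated at -0.162 to 0.084. The labels give only the number, and these weak correlations do not establish pairs. The main test and the permutation over all libraries therefore ignored the number, which was used as a pair only in the replicate block and within pairs. The members, gene lists and promoter motifs were chosen with earlier results of these data known. Named genes were all members, the called genes of the protease, co-chaperone, import, stress and chaperone lists, and the first called gene of the respiratory and ribosomal lists.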

Additional observations from a re-analysis of the deposited data

Results flagged for a closer look

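Among the 4 knockouts, knockout 1 stood apart, below the other 3, for Trap1 and for Lonp1. For Trap1 the gap to the nearest knockout was 0.930 of the whole range, with 119 CPM against 131 to 132 CPM. For Lonp1 it was 0.862 of the range, with 82.3 CPM against 93.7 to 95.6 CPM. Both exceed the critical value of Dixon's test for 4 samples. Of 13 groups of 4 knockouts examined in this way 2 stood out, both by knockout 1. Chance flags about 1 in 20 of independent groups. These 13 share the same 4 libraries, so their count cannot be weighed against that rate. Without knockout 1 the log2 fold change was 0.22 for Trap1 (adjusted p = 0.0588) and 0.10 for Lonp1 (adjusted p = 0.327).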

How the results depend on the processing

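Of the 10 members, 0 were called higher under every setting tried. The number called lower was 2 with all 7 libraries, as it was with RLE or upper quartile scaling, a mean count of at least 10, DESeq2 or a robust prior. It was 0 with no filter, with a change of over 1.5-fold also required, with the replicate block and without both knockout 2 and knockout 3, and 1 with the older deviance method of edgeR, where Hspa9 had an adjusted p of 0.0528. The last 2 alternatives were chosen after seeing the data. With 1 library left out it was 0 to 1, in fits with fewer samples. Without any filter 21455 genes were adjusted over in place of 13409. Hspa9 and Spg7 stayed negative throughout.

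The sign of Clpx was not fixed: its log2 fold change was -0.04 with upper quartile scaling and -0.08 with the replicate block, and ran from -0.09 to 0.14 with 1 library left out. That of Clpp then ran from -0.18 to 0.00 and that of Hspe1 from -0.21 to 0.16. The difference in the Clpp to Clpx log2 ratio turned to 0.04 with the replicate block and ran from -0.31 to 0.05 with 1 library left out. The ratio differences of Hspd1 to Hspe1 and of Afg3l2 to Spg7 then ran from -0.37 to -0.07 and from 0.00 to 0.20. The most abundant member per length was 16.2 times the least abundant in the controls, and 13.5 times with the longest transcript as the length. The cause of these shifts was not tested.

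Over all alternatives the number of respiratory subunits called lower ran from 29 to 65 against 61, of mitochondrial ribosomal proteins from 2 to 15 against 12, of other proteases from 1 to 5 against 4, of co-chaperones and scaffolds from 0 to 3 against 3, and of import genes from 0 to 4 against 2. Stress genes called higher ran from 0 to 3 against 3, and cytosolic and ER chaperones called lower from 1 to 3 against 3. The replicate block brought the calls over all genes from 895 higher and 1103 lower to 577 and 696, and leaving out knockouts 2 and 3 to 373 and 460. Counting error was 4.91% for Clpp, the member with the fewest counts, and exceeded the spread of the controls for Lonp1, Trap1 and Yme1l1.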
